A study of Mus musculus and Homo sapiens with 352 samples.

Results

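Loop anchors that were listed only in cells with mutated CTCF were examined here. An anchor is 1 end of a chromatin interaction in a CTCF ChIA-PET list, given as a chromosome, a start and an end in mm9. The members were selected on the deposited lists themselves: an anchor of the mutant list was a member when the wild-type list held no anchor with identical coordinates. There were 3381 such mutant-only anchors among the 12476 anchors of the mutant list (27.1%, 95% Wilson interval 26.3 to 27.9) and among 16928 distinct anchors of both lists. The other 9095 anchors of the mutant list were shared with the wild-type list, which held 4452 wild-type-only anchors of its own. No member overlapped a wild-type anchor by even 1 bp, so the choice of members was the same by identity and by overlap.

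The series holds 352 samples, of which 2 ChIA-PET libraries were used here together with 2 lists of CTCF binding sites. Both libraries came from CH12, a mouse B cell lymphoma line that grows in culture. In 1 library CTCF was wild type, and in the other, labelled ZF9to11, CTCF carried a mutation at zinc fingers 9 to 11; the labels name no treatment of these cells and do not say whether the mutant line is 1 clone. A tag is 1 sequenced pair of ligated DNA ends that supports an interaction; 74198 tags supported the 11534 wild-type interactions, and 82222 tags the 11820 mutant ones. With 1 library per genotype, every comparison is between 2 libraries and not between genotypes, and no test of a genotype difference was possible. All intervals are at the 95% level, cover counting error only and treat anchors, interactions or tags as independent.

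CTCF is a DNA-binding protein with a row of zinc fingers, of which the central ones read the core of its motif and those near the carboxyl end can contact bases upstream of that core. Cohesin extrudes chromatin into loops and is halted by CTCF bound in the facing orientation, so CTCF sites mark the ends of many loops. ChIA-PET pulls down chromatin with an antibody and ligates the DNA ends held together in it, which makes the pairs of CTCF sites that met in space countable.

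Most members were thinly supported and had a single partner. A member carried a median of 4 tags over all its interactions, with quartiles of 3 and 7 and a highest value of 75. Exactly 3 tags, the least that the list keeps, were found at 1248 members (36.9%), and 10 or more tags at 462 (13.7%, 12.5 to 14.9). Wild-type-only anchors had nearly the same profile in their own list, with a median of 4 tags and 13.5% (12.5 to 14.5) at 10 or more. Shared anchors had a median of 11 mutant tags, and 55.3% (54.3 to 56.4) of them had 10 or more. Because the selection rested on presence in the lists, the low tag numbers at members describe that selection and are no independent finding. On the other side of the rule, 1228 shared anchors were kept out of the members by only 3 wild-type tags, and these had a median of 6 mutant tags (5 to 6).

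**Figure D1:**
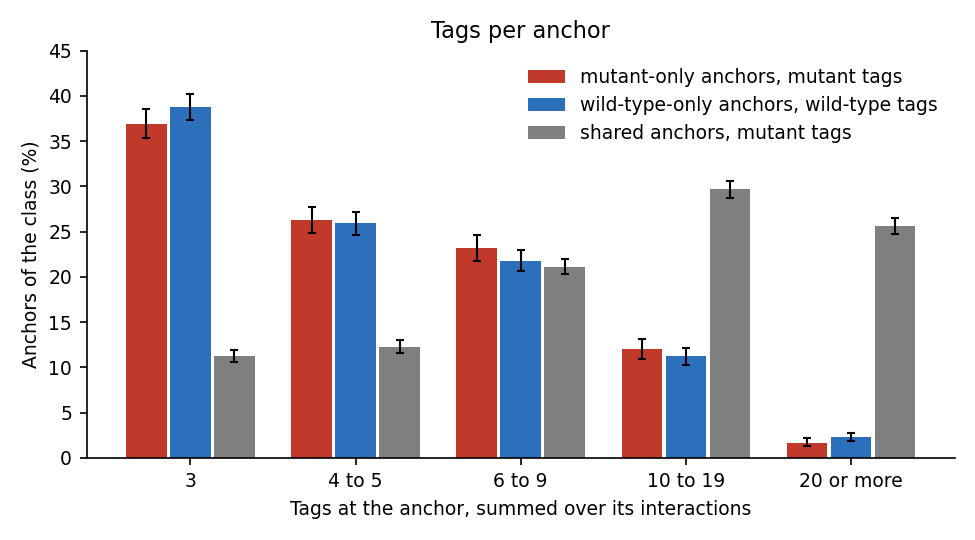
Share of anchors (%, y axis) by the number of tags at the anchor (x axis) for the 3381 mutant-only anchors, the 4452 wild-type-only anchors and the 9095 shared anchors; bars are shares and black lines 95% Wilson intervals. The red and blue bars, of the anchors found in 1 list only, are alike and highest at 3 tags, while the grey bars of the shared anchors are highest at 10 to 19 tags.

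A single partner was recorded for 2551 members (75.5%, 74.0 to 76.9), 2 partners for 628 and 3 partners for 159. There were 38 members with 4 partners and 5 with 5 partners, the most that any member had. The mean was 1.32 partners at members, 1.28 at wild-type-only anchors and 2.11 at shared anchors in the mutant list. An anchor with more partners has more chances to be in both lists, so this difference is no independent finding either. Members were also slightly narrower than shared anchors, with a median width of 1026 bp (1018 to 1034) against 1096 bp (1091 to 1100). That width equalled the median of the wild-type-only anchors.

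Members took part in 3716 mutant interactions, which were 31.4% (30.6 to 32.3) of the list but held 20.3% of its tags. Of these interactions 2971 joined a member to a shared anchor and 745 joined a pair of members. Among the 745, 208 were isolated pairs in which neither member had another partner. No shared partner at all was found for 926 members (27.4%). Interactions of members were weak one by one: 46.1% had exactly 3 tags and 146 (3.93%) had 10 or more. Those of wild-type-only anchors were much alike, at 45.3% and 5.47%. Of all 11820 mutant interactions, 8134 had 4 or more tags and 2070 had 10 or more. Like the tags per anchor, these shares are bound up with the selection and are no independent finding. Wild-type-only anchors took a larger part of their own list, with 40.4% (39.5 to 41.3) of the wild-type interactions and 29.3% of the tags.

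The interactions of members spanned a median of 151 kb (143 to 159) between anchor midpoints, with quartiles of 73.4 and 300.2 kb. Those of wild-type-only anchors spanned a median of 121 kb (117 to 125). At least 400 kb was spanned by 16.4% (15.3 to 17.7) of the members' interactions and by 12.1% of those of wild-type-only anchors. Fewer of the members' interactions were short, with 14.9% under 50 kb against 20.99%. The median span was longer at members than at wild-type-only anchors on 18 of 20 chromosomes. Interactions between shared anchors spanned a median of 153 kb (150 to 157) in the mutant list, an interval that overlapped that of the members, and 137 kb (133 to 140) in the wild-type list.

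Partners of a member can lie on 1 side or on both. Among the 202 members with 3 or more partners, 112 (55.4%, 48.6 to 62.1) had all of them on 1 side. Wild-type-only anchors with as many partners were one-sided in 68.0% (61.6 to 73.9) of 219 cases, and the intervals overlapped by a narrow margin. Shared anchors were one-sided in 57.6% (55.7 to 59.5) of cases in the mutant list and in 66.2% (64.2 to 68.2) in the wild-type list. At exactly 3 partners, 55.3% (47.6 to 62.9) of 159 members were one-sided, beside 71.6% (64.4 to 77.9) of 169 wild-type-only anchors and 68.0% (65.6 to 70.4) of shared anchors in the mutant list, and the members' interval overlapped neither. With exactly 2 partners, 81.2% (78.0 to 84.1) of 628 members were one-sided, beside 82.8% of 751 wild-type-only anchors. Members with 1 partner had it to the left in 51.0% (49.1 to 53.0) of cases.

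The 5 members with most tags show what the strongest interactions of this kind looked like. The first, chr13:56367341-56369517, carried 75 tags (exact Poisson interval 59.0 to 94.0), of which 72 ran to a shared anchor 69.4 kb to its left, chr13:56298451-56299584. In the wild-type list that shared anchor was joined to a wild-type-only anchor, chr13:56361060-56361471, by 10 tags, and this anchor lay 7.16 kb from the member. Farther out, the shared anchor kept an interaction of 82.3 kb with 22 wild-type and 20 mutant tags. Shared partners 225, 232 and 236 kb away had 11, 10 and 3 wild-type tags and 11, 7 and 11 mutant tags. The member thus stood between listed wild-type partners, with 72 tags where no other interaction of the shared anchor had more than 22.

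The second, chr14:41792017-41792967, carried 59 tags, with both partners to its right. A shared anchor 54.4 kb away, chr14:41846323-41847455, took 47 of the tags. That anchor had 1 wild-type interaction in all, of 116 kb and 5 tags, and the mutant list held the same interaction with 5 tags as well. The member lay inside this loop.

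The third, chr15:101113275-101115053, carried 48 tags over 4 shared partners, of which 1 lay to the right. Its strongest interaction, of 42.8 kb and 32 tags, ran to chr15:101070819-101071912. In the wild-type list the same partner was joined by 4 tags to a wild-type-only anchor 2.61 kb from the member. The next, chr14:20932778-20934294, carried 41 tags, 37 of them to a shared anchor 144 kb to the right that had a single wild-type interaction of 6 tags. The mutant list kept that interaction with 5 tags, and another mutant-only anchor close to the member was joined to the same shared anchor by 14 tags.

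The fifth, chr15:99301045-99302242, had 40 tags in 1 interaction of 54.8 kb to chr15:99245853-99247786. The wild-type list joined that shared anchor to a wild-type-only anchor 4.83 kb from the member by 5 tags, and to a shared anchor 3.34 kb from the member by 4 tags. The latter interaction had 8 tags in the mutant list. In all 5 cases the member lay inside a wild-type loop of its strongest shared partner, and in 3 of them that partner also had a wild-type-only partner within 10 kb of the member. Genes at these anchors were not looked up, since no annotation of mm9 was used here.

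**Figure D2:**
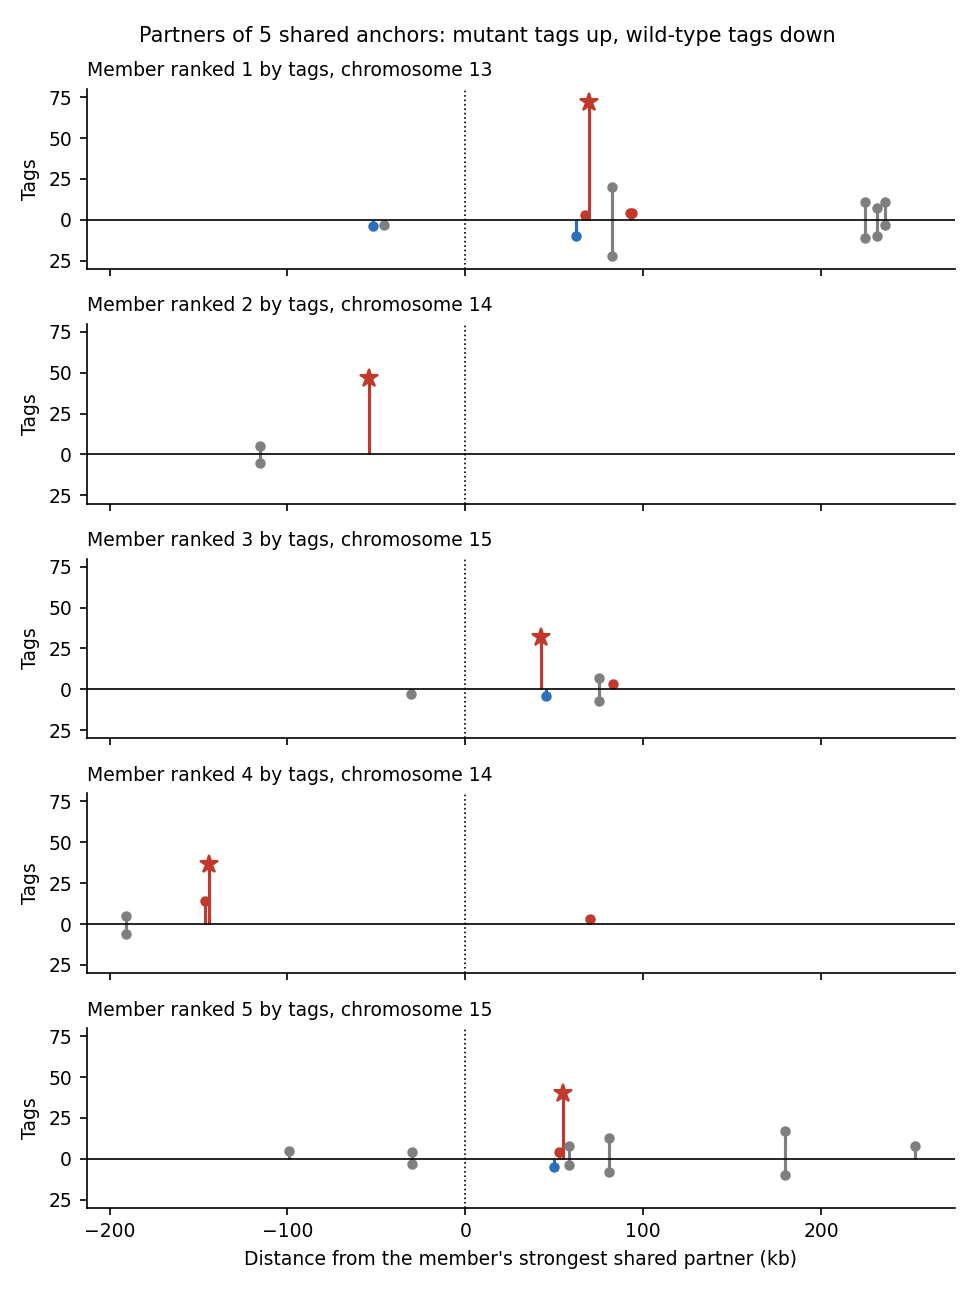
Tags (y axis) of every interaction of the strongest shared partner of each of the 5 members with most tags, by distance from that partner in kb (x axis, partner at 0); mutant tags point up and wild-type tags down, the star is the member, red marks mutant-only, blue wild-type-only and grey shared anchors. The stars stand at 72, 47, 32, 37 and 40 mutant tags with no wild-type tags below them, while grey interactions carry tags on both sides of the line at most positions.

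The members with most partners had 5 each. The one with most tags among them, chr11:104450987-104452195, had 35 tags and lay between its partners, 3 on the left and 2 on the right, at spans of 79.5 to 535 kb. It lay inside no wild-type loop, and the nearest anchor of the wild-type list was 129 kb away. At chr17:24790750-24791662, with 29 tags and 4 of 5 partners to the left, the strongest interaction had 14 tags and ran to a shared anchor whose single wild-type interaction, of 3 tags, ended 24.98 kb from the member. Only chr16:33306354-33307386, with 22 tags, had all 5 partners on the same side, at spans of 238 to 808 kb. The remaining pair, chr4:136536913-136538242 with 24 tags and chr4:57913845-57914852 with 19 tags, lay inside 5 and 3 wild-type loops. All 5 of these members had a CH12 CTCF peak, at percentiles of the peak score from 72.4 to 94.2.

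For each of the 2971 pairs of a member with a shared anchor, the shared anchor's partners in the wild-type list give a reference for where the member lies. This comparison of positions was added after the data were seen. Those partners were all on the member's side in 74.6% (73.0 to 76.1) of pairs, on both sides in 14.3% and all on the opposite side in 11.1% (10.0 to 12.3). In the mirrored pairs, of a wild-type-only anchor with a shared anchor and its mutant partners, the opposite side alone was found in 6.09% (5.35 to 6.91). Among the 2641 pairs with a wild-type partner on the same side, the member lay beyond all such partners in 47.5% (45.6 to 49.4), between them in 18.3% and nearer than all of them in 34.2% (32.4 to 36.0). The mirrored shares for wild-type-only anchors were 22.5% (21.2 to 24.0) beyond, 23.1% between and 54.4% (52.7 to 56.1) nearer. The share beyond was higher for members than for wild-type-only anchors on 20 of 20 chromosomes.

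Interactions between shared anchors that were in 1 list only gave a comparison in which both ends were shared. Each was viewed from both of its ends, so it could be counted up to 2 times, and the intervals do not allow for that. The reference partners of the other list still included anchors found in that list only. The far end lay beyond all same-side partners of the other list in 65.3% (63.9 to 66.7) of 4373 such views in the mutant list. In the wild-type list the share was 45.1% (43.1 to 47.1) of 2376 views. Ends beyond the other list's partners were thus more frequent in the mutant list, in pairs with a 1-list anchor and in pairs of shared anchors. The share was lower at members than between shared anchors, but a member's pair was viewed from its shared end only, so the units differ. With 1 same-side partner in the other list, the shares beyond were 56.5% (53.8 to 59.2) for members and 33.9% (31.5 to 36.3) for wild-type-only anchors. The number of partners per shared anchor and the spans of the lists as a whole differ between the 2 libraries and move with these shares, and their part in them was not tested.

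**Figure D3:**
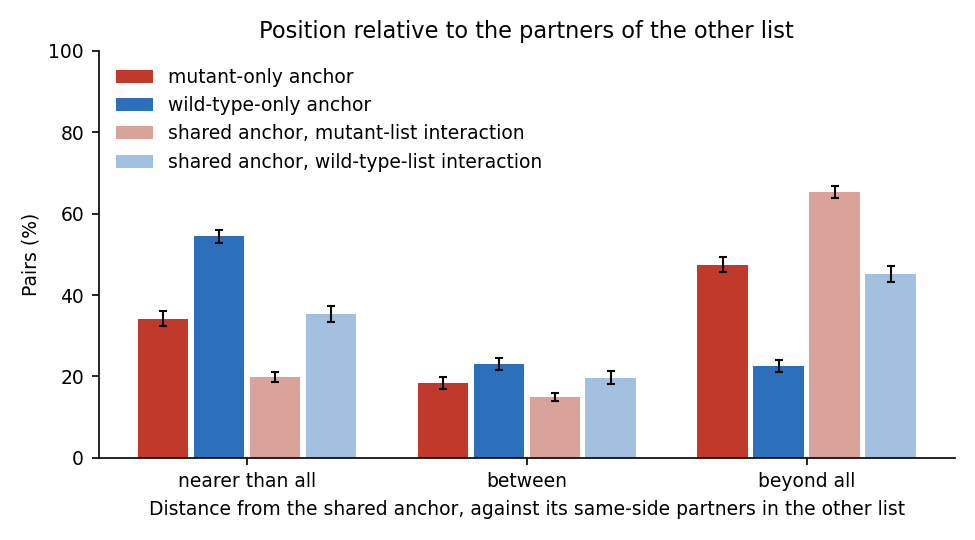
A comparison added after the data were seen: share of pairs (%, y axis) in which an anchor lay nearer to its shared partner than all of that partner's same-side partners in the other list, between them, or beyond them all (x axis); bars are shares and black lines 95% Wilson intervals. Mutant-only anchors (red) are highest beyond all, at 47.5%, and wild-type-only anchors (blue) nearer than all, at 54.4%. The pale bars are interactions between shared anchors listed in 1 list only, each viewed from both of its ends.

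Some members stood close to a wild-type-only anchor that the same shared partner had used. Such a wild-type-only partner lay within 50 kb of the member in 473 of the 2971 pairs (15.9%, 14.6 to 17.3), which involved 456 members. Within 20 kb the share was 8.78% and within 100 kb 24.9%. The mirrored share within 50 kb was 12.5% (11.5 to 13.7), from 453 of 3614 pairs. Both counts rest on the same sets of a member, a wild-type-only anchor and their shared partner. The mirrored share is therefore no separate reference, and the share with a shared wild-type partner as near is not given here. In the 473 pairs the member was the farther of the 2 from the shared anchor in 59.2% (54.7 to 63.5). Both sets of interactions in the 473 pairs had a median of 4 tags.

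The members nearest to a wild-type-only anchor give 3 examples. Their distances run between midpoints, and the facing edges of the anchors were closer still. At chr5:101249438-101250087 the wild-type-only anchor lay 0.945 kb away, and the same shared partner 146 kb to the left was joined to the member by 5 mutant tags and to the wild-type-only anchor by 3 wild-type tags. For chr8:122128744-122129774 and the wild-type-only anchor chr8:122129920-122130730, with 1.07 kb between midpoints, the common partner had 3 tags with each. The third, chr16:27138934-27139609, lay 1.06 kb from a wild-type-only anchor but its 2 partners were 905 and 1175 kb to the left, and the wild-type partners of its shared partner lay 619 and 643 kb from it.

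Most members were not near a wild-type-only anchor. The nearest one lay at a median of 96.6 kb (91.1 to 103), within 5 kb for 166 members (4.91%), within 50 kb for 1137 (33.6%) and over 500 kb away for 350 (10.4%). Shared anchors were closer to wild-type-only anchors, at a median of 80.9 kb (77.9 to 84.2). From a wild-type-only anchor to the nearest member the median was 138 kb (132 to 143), with the members being the smaller set. The nearest shared anchor lay 41.1 kb (38.4 to 43.7) from a member, and the nearest wild-type anchor of any kind 25.1 kb (23.5 to 27.0). Within 5 kb of some wild-type anchor there were 578 members (17.1%), and over 500 kb from all of them 64 (1.89%).

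Members lay a median of 97.0 kb from the next member, and 309 (9.14%) had another within 10 kb. The 3 farthest from any wild-type anchor all had 3 tags and a single mutant-only partner. A pair on chromosome 2, chr2:64982882-64984010 and chr2:65175433-65176184, were joined to each other over 192 kb and lay 4490 and 4298 kb from the wild-type list. The next, chr9:79873320-79874496, lay 1832 kb from it. Each of these 3 had a peak in both CTCF lists, at CH12 percentiles of 42.0, 17.0 and 30.7.

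**Figure D4:**
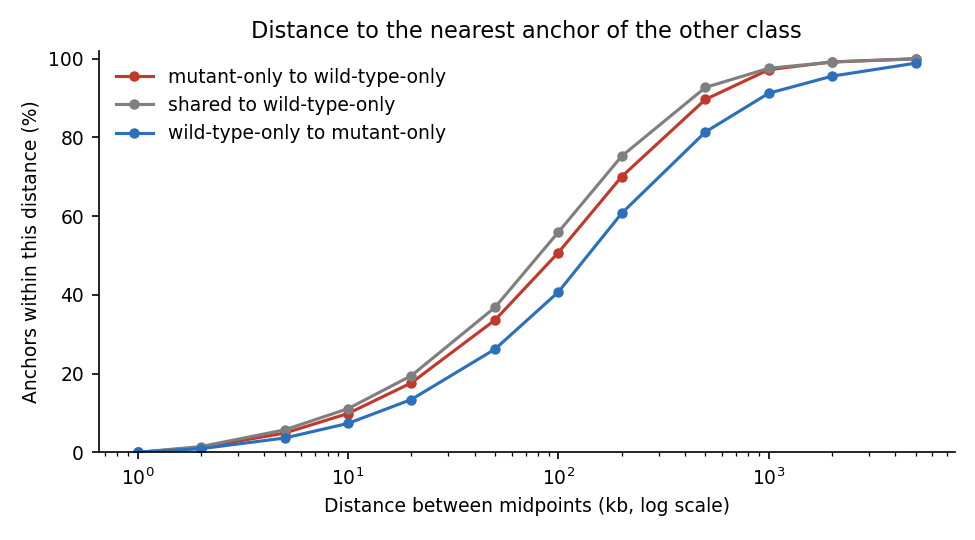
Share of anchors (%, y axis) with the nearest anchor of the other class within a given distance between midpoints (kb, logarithmic x axis). The red line of mutant-only to wild-type-only anchors passes 50.8% at 100 kb and runs just below the grey line of shared to wild-type-only anchors, at 56.0%; the blue line is the reverse direction, at 40.7%.

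Inside a wild-type loop, meaning between the inner edges of at least 1 wild-type interaction, there were 1752 members (51.8%, 50.1 to 53.5). Of these, 721 lay in 1 loop, 442 in 2 and 589 in 3 or more, up to 19. The share was close to that of shared anchors in wild-type loops, 54.3% (53.3 to 55.3). Wild-type-only anchors lay inside a mutant loop in 65.9% (64.5 to 67.3) of cases, beside 63.5% (62.5 to 64.5) of shared anchors, so mutant loops held more of the shared anchors than wild-type loops did. The smallest enclosing wild-type loop had a median span of 165 kb (155 to 171), and the member lay a median of 19.9% of that span from its nearer end.

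Of the 1752 members inside a loop, 1254 (71.6%, 69.4 to 73.6) were joined in the mutant list to an anchor at an end of such a loop. The mirrored share was 77.7% (76.1 to 79.1). The 1629 members outside every wild-type loop lay a median of 43.7 kb (39.2 to 49.2) from the nearest wild-type anchor. Their interactions were longer, with a median span of 210 kb (200 to 224), than those of members inside a loop, 122 kb (116 to 128). The same order was found for wild-type-only anchors outside and inside mutant loops, at 178 and 107 kb. Interactions of members passed over at least 1 wild-type-only anchor in 41.3% (39.8 to 42.9) of cases, and interactions between shared anchors in 45.1% (44.0 to 46.2).

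Nearly all members sat on a CTCF site that was called in cells without the mutation. The CH12 list, of 39438 peaks in wild-type cells, had a peak at 3236 members (95.7%, 94.97 to 96.3). The B cell list, of 59978 peaks from resting and activated cells, had one at 3229 (95.5%, 94.8 to 96.2). A peak in both lists was found at 3106 members, in the CH12 list alone at 130, in the B cell list alone at 123 and in neither at 22 (0.651%). Wild-type-only anchors had similar shares, 96.2% and 96.3%, and shared anchors higher ones, 99.4% and 99.2%. The file headers tie each listed interaction to called CTCF peaks that hold a core motif, so a peak at an anchor is close to a condition for being listed. Whose peak calls set the anchors of the mutant list is not stated in those headers or in the labels, and no list of CTCF peaks in the mutant cells was used.

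The peaks at members were weaker than those at shared anchors. Shared anchors had to be listed in both libraries, and peak strength moved with tags, as given below. This difference is therefore bound up with the selection and is no independent finding. Ranked by the authors' score within the CH12 list, the strongest peak of a member was at a median percentile of 64.6 (63.6 to 66.1), that of a wild-type-only anchor at 62.0 (61.0 to 63.0) and that of a shared anchor at 79.1 (78.5 to 79.8). The median was lower at members than at shared anchors on 20 of 20 chromosomes, and higher than at wild-type-only anchors on 13 of 20. In the B cell list, ranked by the authors' −log10 q-value, the medians were 74.0 (72.8 to 74.8), 75.1 (74.4 to 75.9) and 84.0 (83.6 to 84.4). A CH12 peak at or above the median score of its list was found at 64.6% of members, 63.5% of wild-type-only anchors and 84.9% of shared anchors. The authors' fold over background of the strongest B cell peak was a median of 8.02 (7.91 to 8.12) at members. It was 8.26 (8.16 to 8.36) at wild-type-only anchors and 8.30 (8.25 to 8.35) at shared anchors.

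Peak strength at members moved with their tags. The median CH12 percentile was 59.4 (57.0 to 61.5) at members with 3 tags, 62.6 with 4 to 5, 68.5 with 6 to 9, 75.4 with 10 to 19 and 82.2 (76.2 to 88.9) at the 57 with 20 or more. Shared anchors in the same classes of mutant tags stood at 70.8 (68.9 to 72.4), 72.1, 74.2, 79.5 and 87.6 (86.8 to 88.2). The intervals were far apart at 3 tags and overlapped at 20 or more tags. Wild-type-only anchors in classes of wild-type tags stood at 56.8 (54.8 to 58.4), 56.6 (55.1 to 58.99), 67.0, 74.2 and 80.2. In all 5 classes both sets of values were below those of shared anchors, which are by mutant tags throughout. For wild-type-only anchors the classes compared are thus not of the same list. Classes of mutant tags also leave in place the condition that shared anchors be listed in the wild-type library.

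**Figure D5:**
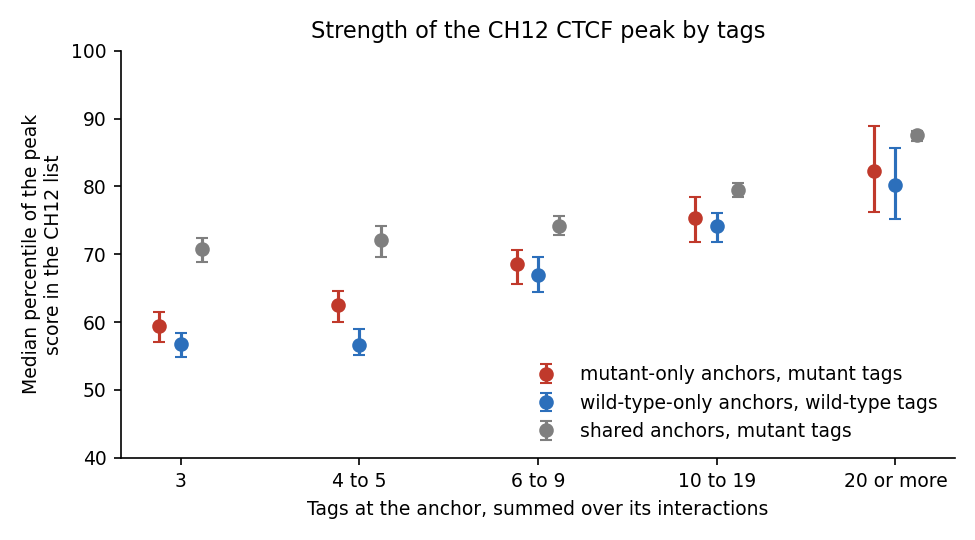
Median percentile of the CH12 peak score (y axis, 0 to 100 scale shown from 40) by tags at the anchor (x axis) for mutant-only, wild-type-only and shared anchors with a CH12 peak; bars are exact binomial 95% intervals of the median. Red points rise from 59.4 at 3 tags to 82.2 at 20 or more tags, blue points from 56.8 to 80.2, and both lie below the grey points in each class. Blue points are by wild-type tags, and red and grey points by mutant tags.

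The 3 members with the highest CH12 scores were not those with most tags. The highest, chr7:108811887-108813125, had a score of 3177.76 in a list that runs from 90.01 to 3233.06, but only 3 tags in 1 interaction of 413 kb. Its shared partner had a single wild-type interaction, of 3 tags, to a wild-type-only anchor 10.2 kb from the member. The next, chr2:30325093-30326733, scored 3126.72 and had 13 tags over 3 shared partners. At chr14:56096533-56098689 the score was 3100, a value that 176 CH12 peaks and 9 members share. With so many peaks at 1 value, the order of the highest scores may not be an order of peak strength. That member had 22 tags over 4 shared partners, all to its right.

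Members with a peak in the B cell list alone were weakly supported. They had a median of 3 tags, 90.2% (83.7 to 94.3) of the 123 had 1 partner, and their B cell peak was at a median percentile of 50.7 (46.1 to 54.1). The 130 members with a CH12 peak alone had it at a median percentile of 27.3 (22.7 to 32.1). The 22 members with a peak in neither list had a median of 3.5 tags. Among them chr15:36418245-36419284 had most, 13 tags over 2 shared partners 309 and 321 kb to the left. It was joined by 9 tags to chr15:36108999-36109844, which in the wild-type list was joined to shared anchors 7.83, 16.6 and 28.97 kb from the member by 3, 4 and 3 tags. None of those 3 interactions was in the mutant list.

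A second member without a peak, chr7:52842232-52843002, was joined by 5 tags to a shared anchor 95.7 kb to its right, chr7:52937690-52939039. The wild-type list joined that anchor to 3 shared anchors 2.23, 3.88 and 6.28 kb from the member, by 4, 10 and 4 tags, and none of these was in the mutant list. At chr4:118837486-118838753, with 7 tags over 2 shared partners, the neighbouring shared anchor 2.20 kb away was joined to both partners in both lists. With chr4:118676511-118678340 it had 21 wild-type and 19 mutant tags, and with chr4:118664002-118665203 it had 11 and 6. The last pair, chr6:127619755-127620682 with 6 tags and chr4:126163175-126164107 with 5, had mutant-only partners alone.

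A member was joined to 2421 of the 9095 shared anchors (26.6%, 25.7 to 27.5), and 446 shared anchors had 2 or more members as partners, up to 6. The tags that shared anchors had among themselves, which the rule did not use directly, were compared between the libraries for the 6996 shared anchors with 10 or more such tags. Scaled by all listed tags, the median log2 ratio of mutant to wild-type tags was 0.29 (0.23 to 0.34) at the 1658 shared anchors joined to a member and 0.18 over all 6996. At the 5338 not joined to one it was 0.15 (0.11 to 0.18). A ratio over 2-fold higher was found at 21.4% (19.5 to 23.5) of the joined anchors, against a background of 18.3% over all 6996. A ratio over 2-fold lower was found at 9.65% (8.32 to 11.2), against a background of 12%.

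Scaling by the tags between shared anchors moved the median of all 6996 to 0.01. On that scale the median of the joined anchors was 0.12 (0.05 to 0.16), with 15.8% of them over 2-fold higher against a background of 13.4%, and 12.8% over 2-fold lower against 15.6%. The median of the joined anchors stood 0.14 in log2 above that of the anchors not joined to a member. This difference is the same on both scales by construction, since the scale shifts all anchors alike. A shared anchor with more mutant tags also has more chances to be joined to a member, and the part of this in the difference was not tested.

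Members made up 23.8% to 30.4% of the mutant anchors on each autosome. On chromosome X they were 55 of 132 anchors (41.7%, 33.6 to 50.2), and wild-type-only anchors were likewise most frequent there, at 55.5% of the wild-type anchors. The CH12 peak percentile at members was lowest on chromosome X as well, with a median of 37.4, where shared anchors had 43.7. On 20 of 20 chromosomes the mutant-only share of the mutant list was below the wild-type-only share of the wild-type list.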

How the data were processed

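The labels of 352 samples gave 98 groups; 2 ChIA-PET samples and 2 lists of CTCF peaks were used here. Each interaction has a deposited count of tags. Per the file headers, interactions rest on called CTCF peaks with a core motif, at least 3 tags and a span of up to 2 Mb. CH12 peaks have 1 deposited score each. B cell peaks have a deposited fold over background, and the authors' −log10 q-value ranked them here. The submitters' processing notes name mm9 and, with no roles, BWA, bedtools 2.25, SAMtools 1.2, Bowtie 1.1.1 and CASAVA 1.8.2. For the interaction caller nothing is stated there.

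Library depth is not stated either, and since interactions below 3 tags are left out, the listed tags are not that depth; an interaction can be missing for few tags or for lack of a peak call. Distances run between anchor midpoints. Shares have Wilson intervals, medians exact binomial ones and tag sums exact Poisson ones. Tag ratios used a pseudocount of 0.5 tags. The named anchors were the 5 members with most tags, the 5 with most partners, the 3 farthest from a wild-type anchor, the 3 nearest to a wild-type-only anchor, the 3 with the highest CH12 score and the 5 with most tags among those without a peak; ties went to more tags. Members, lists and comparisons were chosen with earlier results of these data known. The geometry was tested on simulated anchors. No mm9 genome or annotation was used, so sequences, motifs and genes at anchors are not analysed here. Python 3.11.15, numpy 2.4.6, scipy 1.17.1 and matplotlib 3.10.9 were used.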

Additional observations from a re-analysis of the deposited data

How the results depend on the processing

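Of 39 alternatives, 18 left a value within its interval or, for a count, within 1.5 times, and 21 moved it. A change of sign could occur only in the log2 tag ratio and was not seen there. Counts, shares, spans, distances and percentiles cannot change sign, and the directions of comparisons between classes were not counted here. Of the 39, 6 were chosen after the data were seen, with the 2 shares beyond all partners that they vary. With a single library for each genotype, samples could not be paired. With mutant interactions of 5 or more tags 1208 members were left of 3381. With 4 or more tags 83.3% of members had 1 partner and 24.6% of mutant interactions held a member; with 10 or more tags 7.05% did and the median span was 125 kb, and counted by tags the share was 20.3%. From 2 partners up, 74.9% of members were one-sided. To wild-type-only anchors of 5 or more tags the median distance was 239 kb. Members lay inside a wild-type loop in 29.6% with loops of 5 or more tags, 42.9% with loops of at most 400 kb and 43.4% at least 10 kb inside. Peaks at or above the median of their list were at 64.6% (CH12) and 78.9% (B cell) of members. The CH12 percentile was 69.7 at members of 5 or more tags. A near wild-type-only partner was found in 8.78% within 20 kb and 24.9% within 100 kb. The tag ratio was 0.12 scaled by tags between shared anchors and 0.21 with 5 or more tags. The share beyond all partners of the other list was 56.5% for members with 1 same-side partner; for wild-type-only anchors it was 33.9% with 1 partner and 16.2% with 5 or more tags. Without chromosome X these shares were 47.1% and 22.5%. One library per genotype and the limit of 3 tags bound every value: absence from a list is not absence of contact.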
